A study of Mus musculus with 6 samples.

Results

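The let-7 family guide strands are the mature miRNAs cut from the 5′ arm of the let-7a to let-7i hairpins and of the miR-98 hairpin. They were taken by name from the table of mature miRNAs, and the 9 members were all present among the 1011 rows: mmu-let-7a-5p, mmu-let-7b-5p, mmu-let-7c-5p, mmu-let-7d-5p, mmu-let-7e-5p, mmu-let-7f-5p, mmu-let-7g-5p, mmu-let-7i-5p and mmu-miR-98-5p, written below without the species prefix. Small RNA had been sequenced from primary pancreatic islets, the hormone-secreting cell clusters of the pancreas, of mice on the diet labelled HFD (3 libraries) and of mice on the diet labelled NCD (3 libraries). The labels give no strain, sex, age or feeding time, and do not say whether a library came from 1 animal or from a pool, so p-values measure the spread between these libraries.

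The let-7 miRNA was found in the worm Caenorhabditis elegans as a switch of developmental timing, and in mammals the family accumulates as cells differentiate. The RNA-binding protein LIN28 blocks the maturation of let-7 precursors in stem cells. A miRNA finds its target mRNAs mainly through its seed, the short stretch just behind its 5′ end, so paralogs with the same seed can act on a shared set of targets, which for let-7 includes Hmga2, members of the Igf2bp family and, in mice, genes of insulin signalling. Mice with let-7 raised throughout the body have impaired glucose tolerance.

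The mature sequences are shown because the members share their seed and differ in few bases behind it, which bears on how reads are told apart. They are given 5′ to 3′ as the deposited table lists them, with the seed (bases 2 to 8) in capitals, and each was identical to its RefSeq record (GRCm38.p6).
let-7a-5p: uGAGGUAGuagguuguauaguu
let-7b-5p: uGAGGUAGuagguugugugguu
let-7c-5p: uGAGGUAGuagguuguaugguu
let-7d-5p: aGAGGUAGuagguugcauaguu
let-7e-5p: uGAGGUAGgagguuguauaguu
let-7f-5p: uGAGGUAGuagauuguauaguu
let-7g-5p: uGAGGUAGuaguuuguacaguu
let-7i-5p: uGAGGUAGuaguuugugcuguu
miR-98-5p: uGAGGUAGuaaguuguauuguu

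All 9 members carried the seed GAGGUAG and were 22 bases long, and no other row of the table had this seed at bases 2 to 8. Counted from the 5′ end and set against let-7a-5p, let-7c-5p differed by A19G, let-7e-5p by U9G and let-7f-5p by G12A, 1 base each. let-7b-5p differed from let-7c-5p by G17A, read from let-7b-5p to let-7c-5p, so that 4 of the 36 pairs of members were 1 base apart and 10 pairs were 2 bases apart. The most distant pair, let-7d-5p and let-7i-5p, differed at 6 bases. G and C made up 7 of the 22 bases in let-7f-5p and miR-98-5p, 8 in let-7a-5p and let-7g-5p, 9 in let-7c-5p, let-7d-5p, let-7e-5p and let-7i-5p, and 10 in let-7b-5p. The sources used here do not give how reads that match several paralogs were assigned, so the split between members 1 base apart is less certain than their sum.

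A row named let-7j has a name of the same kind and is shown for contrast, with the same bases in capitals.
let-7j: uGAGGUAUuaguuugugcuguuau
Over the 22 bases it shares with let-7i-5p it differed by G8U, inside the seed, and it carried 2 further bases at its 3′ end. It had 60 reads in all 6 libraries together, did not pass the filter on low counts and was not part of the pool described here.

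The members come from 12 hairpins, of which several sit close together (RefSeq positions, with host genes from the GENCODE annotation of the same build). On chromosome 13 (GRCm38.p6, minus strand), Mirlet7d (48536012 to 48536114), Mirlet7f-1 (48537829 to 48537917) and Mirlet7a-1 (48538179 to 48538272) overlap exons of the long noncoding RNA 6720427I07Rik. On chromosome 15 (plus strand), Mirlet7c-2 (85706603 to 85706697) and Mirlet7b (85707319 to 85707403) overlap exons of the noncoding transcript Lncppara. On chromosome X (plus strand), Mirlet7f-2 (151912346 to 151912428) and Mir98 (151913214 to 151913321) lie in an intron of Huwe1, a ubiquitin ligase gene. Mirlet7g (chromosome 9, 106178840 to 106178927, plus strand) lies in an intron of Wdr82, and Mirlet7i (chromosome 10, 122985640 to 122985724, minus strand) in an exon of the transcribed pseudogene D630033A02Rik. The 3 others are intronic, Mirlet7a-2 in 3110039I08Rik (chromosome 9, 41536716 to 41536811, plus strand), Mirlet7c-1 in Mir99ahg (chromosome 16, 77599657 to 77599750, plus strand) and Mirlet7e in Spaca6 (chromosome 17, 17830352 to 17830444, plus strand). Because let-7a-5p, let-7c-5p and let-7f-5p each come from a pair of hairpins with the same guide sequence, their counts cannot be divided between loci.

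The libraries held 7166712 to 11172255 counted reads. The islet-enriched miR-375-3p took 23.2% to 43.8% of the reads, and all 9 islet endocrine markers were detected. Levels are given as CPM, the count divided by the library total after scaling by trimmed-mean (TMM) factors and put on a common total. These factors lay between 0.840 and 0.995 in 5 libraries and were 1.73 in NCD 3. As a share of all reads, the 9 islet endocrine markers took 48.7% in NCD 3 and 47.2% to 59.8% in the other 5 libraries; on the TMM scale, which divides by the factor, their sum was 281489 CPM in NCD 3 and 490838 to 636260 CPM in the others. The summed level of 4 acinar markers was 20.2 to 205 CPM in HFD libraries and 111 to 418 CPM in NCD libraries, with the highest value in NCD 3 and the lowest in HFD 1, also as a share of reads (0.0723% in NCD 3 and 0.00169% to 0.0204% in the other libraries). The TMM factor of NCD 3 lowers each of its scaled levels, so results are also given on quantities that do not use the factor.

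let-7f-5p was by far the most abundant member and had rank 6 among all miRNAs by mean level. It stood at 34432, 23177 and 25016 CPM in HFD libraries 1, 2 and 3, and at 26034, 35558 and 12855 CPM in NCD libraries 1, 2 and 3. The diets overlapped, with the highest and the lowest value both in NCD libraries. In bulk islets, fewer cells that express a miRNA and less of it per cell cannot be told apart.

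let-7g-5p had 8377, 5218 and 8402 CPM in the HFD libraries and 5921, 8482 and 3138 CPM in the NCD libraries. let-7i-5p had 8111, 6234 and 8016 CPM in the HFD libraries, against 5071, 7000.4 and 3321 CPM in the NCD libraries. HFD 1 and HFD 3 lay above each NCD library for let-7i-5p, while HFD 2 lay below NCD 2, so the diets overlapped by 1 pair of libraries.

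The next members were let-7c-5p and let-7a-5p. let-7c-5p had 4099.99, 3668 and 3642 CPM in the HFD libraries and 4753, 4802 and 2389.8 CPM in the NCD libraries. let-7a-5p had 3546, 3072 and 3155 CPM in the HFD libraries and 3667, 4052 and 1258 CPM in the NCD libraries. On this scale the HFD values of both lay inside the NCD range, which was wide because NCD 3 was low. As a share of all reads, without the TMM factor, let-7a-5p still overlapped and was lowest in NCD 3. For let-7c-5p each HFD library then lay below each NCD library. The nearest were HFD 3 (40053 of 11059628 reads) and NCD 3 (33610 of 8121430 reads).

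The 4 scarcest members were let-7b-5p, let-7e-5p, let-7d-5p and miR-98-5p. let-7b-5p had 792, 769 and 878.6 CPM in the HFD libraries and 1184, 879.5 and 932 CPM in the NCD libraries. let-7e-5p had 496, 465 and 459 CPM in the HFD libraries and 433, 413 and 453 CPM in the NCD libraries. These were the 2 members whose diets did not overlap on this scale, let-7b-5p lower and let-7e-5p higher in HFD, by narrow gaps in each case. Of all 406 tested miRNAs, 15.3% did not overlap between the diets on the TMM scale. As a share of all reads, without the TMM factor, let-7b-5p and let-7e-5p both overlapped between the diets.

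let-7d-5p had 330.1, 322 and 349 CPM in the HFD libraries and 408, 401 and 219 CPM in the NCD libraries. miR-98-5p had 143, 78.9 and 119.7 CPM in the HFD libraries and 110.5, 135 and 67.9 CPM in the NCD libraries. Both overlapped between the diets on the TMM scale. As a share of all reads, miR-98-5p overlapped too, but each HFD library of let-7d-5p lay below each NCD library. The gap was narrow, from 3842 of 11059628 reads in HFD 3 to 3911 of 11172255 reads in NCD 2. How many of all tested miRNAs separate on that scale, as let-7c-5p and let-7d-5p did, was not counted.

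**Figure D1:**
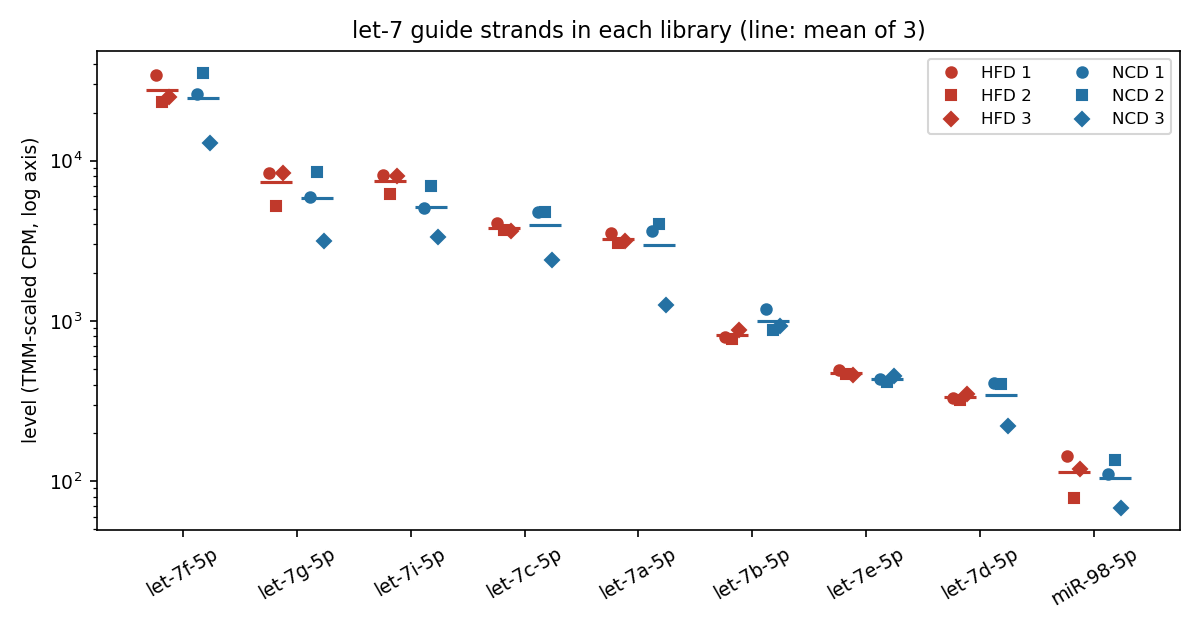
Level of each let-7 guide strand in each library (TMM-scaled CPM, log axis), HFD in red left of NCD in blue, with the mark shape giving the replicate and the line the mean of 3. let-7f-5p lies above the other 8 members in every library. On this scale NCD 3 is the lowest library for 7 members, the exceptions being let-7b-5p and let-7e-5p. As a share of all reads, without the TMM factor, NCD 3 is the lowest library for let-7a-5p only.

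The order of the members was steady at its ends and blurred in the middle. let-7f-5p averaged 3.97 times the level of let-7g-5p, with no overlap over the 6 libraries. let-7g-5p and let-7i-5p could not be ordered, since their means differed by a factor of 1.05 and let-7g-5p was the higher in 4 of 6 libraries. let-7i-5p over let-7c-5p and let-7c-5p over let-7a-5p held within each of the 6 libraries, although their ranges over libraries overlapped. From let-7a-5p down to let-7b-5p, let-7e-5p, let-7d-5p and miR-98-5p each step held in 6 of 6 libraries without overlap of the ranges, the smallest being the factor of 1.34 between let-7e-5p and let-7d-5p. Library preparation by ligation favours some miRNA ends over others, so this is an order of read counts.

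The shared seed pool, the sum of the 9 guide strands, overlapped between the diets as a share of all reads. It held 5.07%, 3.61% and 4.98% of all reads in HFD libraries 1, 2 and 3, and 4.48%, 5.39% and 4.27% in NCD libraries 1, 2 and 3. The mean was 4.55% ± 0.817 for HFD and 4.71% ± 0.598 for NCD (SD, n = 3 each), a difference smaller than the spread between libraries of 1 diet. The widest range was that of the HFD libraries, which held the lowest share of all.

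On the TMM scale the pool had 60327, 43003 and 50039 CPM in the HFD libraries and 47582, 61722 and 24634 CPM in the NCD libraries. The HFD mean was 51123 ± 8713 CPM and the NCD mean 44646 ± 18718 CPM (SD, n = 3 each), a mean log2 difference of 0.28. That value was -0.06 when levels were scaled by library totals alone and -0.11 without NCD 3, so its sign rested on that library and its factor. It was 0.55 without NCD 2 and 0.13 without HFD 1. No p is given for a sum over chosen members.

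The composition of the pool does not depend on any scaling between libraries. let-7f-5p alone supplied more of the pool than the other members together in 5 of 6 libraries, with 57.1%, 53.9% and 49.99% of the pool in the HFD libraries and 54.7%, 57.6% and 52.2% in the NCD libraries. Its mean share was 53.7% ± 3.55 for HFD and 54.8% ± 2.71 for NCD (SD, n = 3 each). HFD 3 was the library in which it fell just short of the rest. The 95% Wilson intervals of all such shares reached at most 0.172 percentage points to either side, which covers counting error only.

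In percentage points, the mean share that differed most from diet to diet was that of let-7i-5p. It supplied 13.4%, 14.5% and 16.0% of the pool in the HFD libraries, against 10.7%, 11.3% and 13.5% in the NCD libraries, with means of 14.7% ± 1.29 for HFD and 11.8% ± 1.47 for NCD (SD, n = 3 each). The difference of 2.83 percentage points was larger than either SD, but the lowest HFD share (HFD 1) was just under the highest NCD share (NCD 3), so the diets touched. Leaving out 1 library at a time gave differences of 2.14 to 3.65 percentage points. let-7g-5p, with which let-7i-5p shares all but 2 bases, supplied 13.9%, 12.1% and 16.8% in the HFD libraries and 12.4%, 13.7% and 12.7% in the NCD libraries, a difference of 1.30 percentage points that was 0.035 without HFD 3 and 2.36 without HFD 2.

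let-7c-5p went the other way. It supplied 6.80%, 8.53% and 7.28% of the pool in the HFD libraries and 9.99%, 7.78% and 9.70% in the NCD libraries, with means of 7.53% ± 0.895 for HFD and 9.16% ± 1.20 for NCD (SD, n = 3 each). HFD 2 lay above NCD 2, so the diets overlapped here too. let-7a-5p had nearly the same mean share in both, 6.44% ± 0.644 in HFD and 6.46% ± 1.30 in NCD islets. Among the scarce members, let-7b-5p averaged 1.62% ± 0.266 of the pool for HFD and 2.57% ± 1.18 for NCD, and let-7e-5p 0.940% ± 0.131 for HFD and 1.14% ± 0.618 for NCD (SD, n = 3 each). The difference of let-7b-5p, -0.948 percentage points, was -0.338 without NCD 3 and -1.52 without NCD 2. That of let-7e-5p, -0.200 percentage points, was 0.150 without NCD 3, -0.435 without NCD 2 and -0.314 without NCD 1. let-7d-5p averaged 0.665% ± 0.105 for HFD and 0.799% ± 0.130 for NCD, and miR-98-5p 0.220% ± 0.0316 for HFD and 0.242% ± 0.0298 for NCD.

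None of the 9 shares separated the diets. Over all 406 tested miRNAs, the ratio of a miRNA's reads to the reads of the let-7 pool separated the diets for 5.17%. Because 5 members form a chain of sequences 1 base apart, they were also counted together. let-7a-5p, let-7b-5p, let-7c-5p, let-7e-5p and let-7f-5p summed to 71.9%, 72.4% and 66.3% of the pool in the HFD libraries, against 75.8%, 74.05% and 72.6% in the NCD libraries. The means were 70.2% ± 3.42 for HFD and 74.2% ± 1.60 for NCD (SD, n = 3 each), and the gap between HFD 2 and NCD 3, the nearest libraries, was narrow. The difference of -3.97 percentage points was -1.997 without HFD 3. The remaining 4 members, chiefly let-7g-5p and let-7i-5p, made up the difference.

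**Figure D2:**
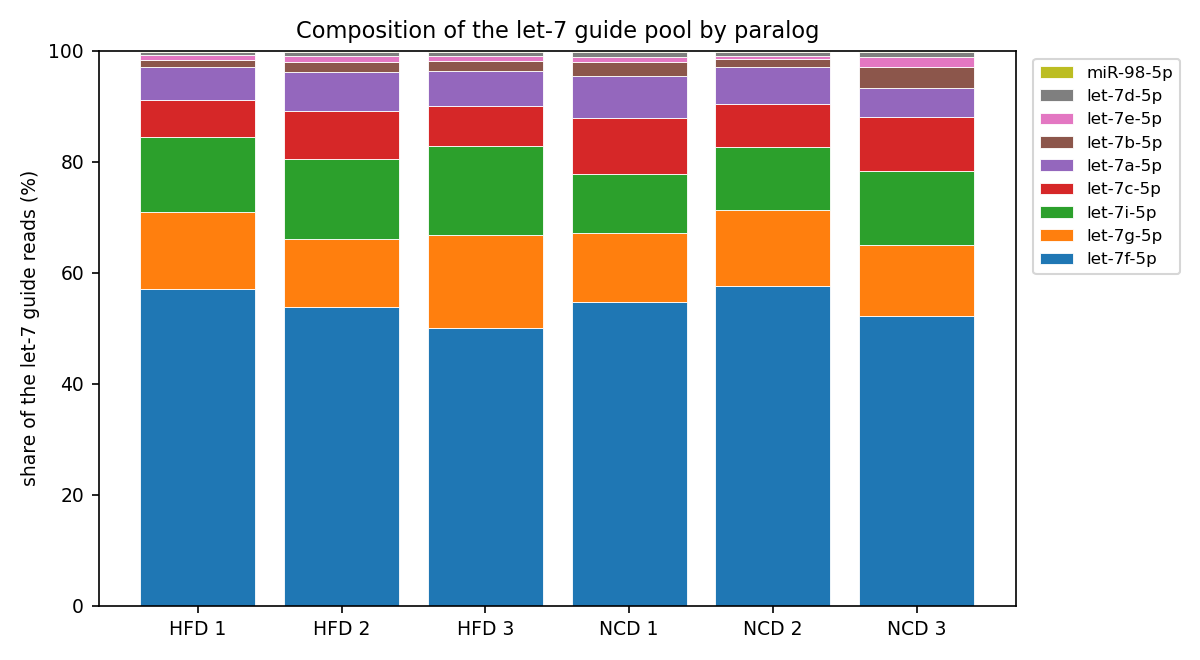
Share of each paralog in the summed let-7 guide reads (percent), 1 bar per library, HFD bars left of NCD bars. let-7f-5p fills 49.99% to 57.6% of each bar, and let-7b-5p is widest in NCD 3. let-7i-5p is on average thicker in the HFD bars (mean 14.7%) than in the NCD bars (mean 11.8%). In HFD 1 let-7i-5p is slightly thinner than in NCD 3.

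In the test across all miRNAs, no let-7 guide strand passed the threshold between HFD and NCD islets. With edgeR's quasi-likelihood test, with Benjamini-Hochberg adjustment over all 406 tested miRNAs and a threshold of 0.05, 0 of the 9 members passed, where 0.246% of all tested miRNAs did, the 1 call being miR-146a-5p. At an unadjusted p under 0.05 the count was also 0 of 9, where 8.37% of all miRNAs reached that level, and DESeq2 and limma-voom called 0 members. The adjusted p of the members ran from 0.609 to 0.961. All 9 members passed the filter on low counts.

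The largest estimate was that of let-7i-5p, with 7454 ± 1058 CPM as its HFD mean and 5131 ± 1841 CPM as its NCD mean (SD, n = 3 each). Its log2 fold change was 0.54 ± 0.33 (SE, edgeR adjusted p = 0.609). An approximate 95% interval, 1.96 standard errors to either side, covered -0.11 to 1.19, so neither no difference nor a doubling lay outside it. It uses a normal approximation and is narrower than an interval from edgeR's own test would be. let-7g-5p followed with 0.33 ± 0.38 (SE), with means of 7332 ± 1832 CPM for HFD and 5847 ± 2673 CPM for NCD (SD, n = 3 each). Without NCD 3 the log2 fold changes of let-7i-5p and let-7g-5p were 0.30 and 0.021, and with library totals only they were 0.27 and 0.10. Without NCD 2 they were 0.82 and 0.69.

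At the lower end, let-7b-5p had a log2 fold change of -0.30 ± 0.28 (SE), with means of 813 ± 58.0 CPM for HFD and 999 ± 163 CPM for NCD and an edgeR adjusted p of 0.683. It kept a negative sign under each of 17 alternatives, from -0.68 to -0.22. let-7e-5p, with means of 473 ± 19.4 CPM for HFD and 433 ± 20.2 CPM for NCD, had 0.13 ± 0.28 (SE), which was -0.30 with library totals only. On the TMM scale the diets did not overlap for these 2 of 9 members, against the 15.3% of all tested miRNAs given above. As a share of all reads both overlapped, and neither had an adjusted p near the threshold.

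The other members had small estimates with wide errors. The log2 fold change was 0.15 ± 0.38 for let-7f-5p, 0.13 ± 0.36 for miR-98-5p, 0.12 ± 0.39 for let-7a-5p, -0.04 ± 0.32 for let-7d-5p and -0.07 ± 0.33 for let-7c-5p (SE). Each of these 5 had another sign under at least 1 alternative. In all, 6 members had a positive and 3 a negative estimate, with a median of 0.13, while the median over all tested miRNAs was 0.03 and 51.2% of them were positive. With library totals only, the median over all miRNAs moved to -0.37. Of the 9 members, 7 were then negative, and their median was the estimate of miR-98-5p, -0.15.

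**Figure D3:**
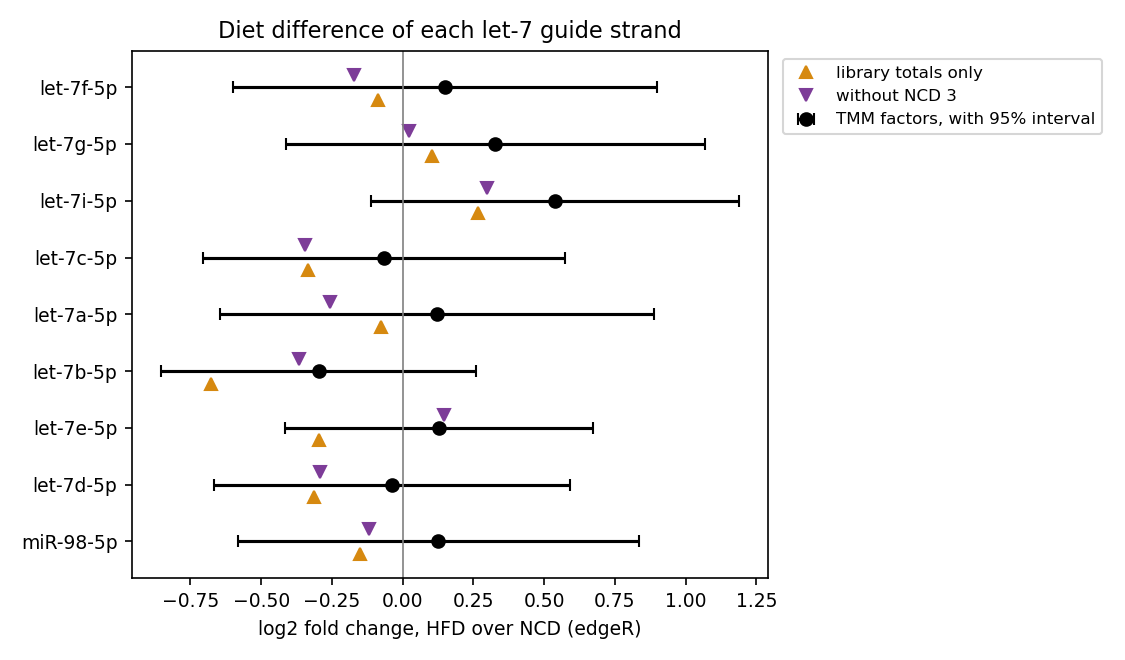
Log2 fold change of each let-7 guide strand, HFD over NCD (edgeR), ordered by level from the top. Black points with bars give the estimate with TMM factors and its approximate 95% interval (1.96 standard errors to either side). Orange triangles give the estimate with library totals only and purple triangles the estimate without NCD 3. Each bar crosses 0.

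The paralogs did not vary together in every library. In NCD 3, let-7b-5p and let-7e-5p took larger shares of the pool than elsewhere, 3.79% against 1.31% to 2.49% in the other libraries for let-7b-5p and 1.84% against 0.669% to 1.08% for let-7e-5p. On the log2 scale these shares lay 1.15 and 1.08 above the mean of the other 5 libraries, while that of let-7a-5p lay at -0.39. The ratio of let-7c-5p to let-7a-5p, which differ by 1 base, was 1.16, 1.19 and 1.15 in the HFD libraries and 1.30, 1.19 and 1.90 in the NCD libraries, so NCD 3 stood apart here as well. That library also had the highest share of acinar marker reads, as given above, and the part of acinar cells in these shares was not tested.

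Across the 9 members, the number of G and C bases and the deviation of a share from the other libraries had a Pearson r of -0.82 in HFD 1, 0.37 in HFD 2 and -0.21 in HFD 3. The value was 0.27 in NCD 1, -0.73 in NCD 2 and 0.62 in NCD 3. The libraries thus leaned to either side within both diets. Over all 406 tested miRNAs, the r between GC content and the deviation of the level was -0.093, 0.17 and -0.18 in HFD 1, 2 and 3 and 0.035, -0.053 and 0.082 in NCD 1, 2 and 3. Shares within a library add up to a fixed total, and the values for the members are a description over 9 sequences. Removing a linear GC trend from each library moved the log2 fold change of let-7i-5p to 0.52 and left 0 members past the threshold, as before. That trend was fitted over all 406 tested miRNAs, so it cannot decide on a lean among the 9 members.

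**Figure D4:**
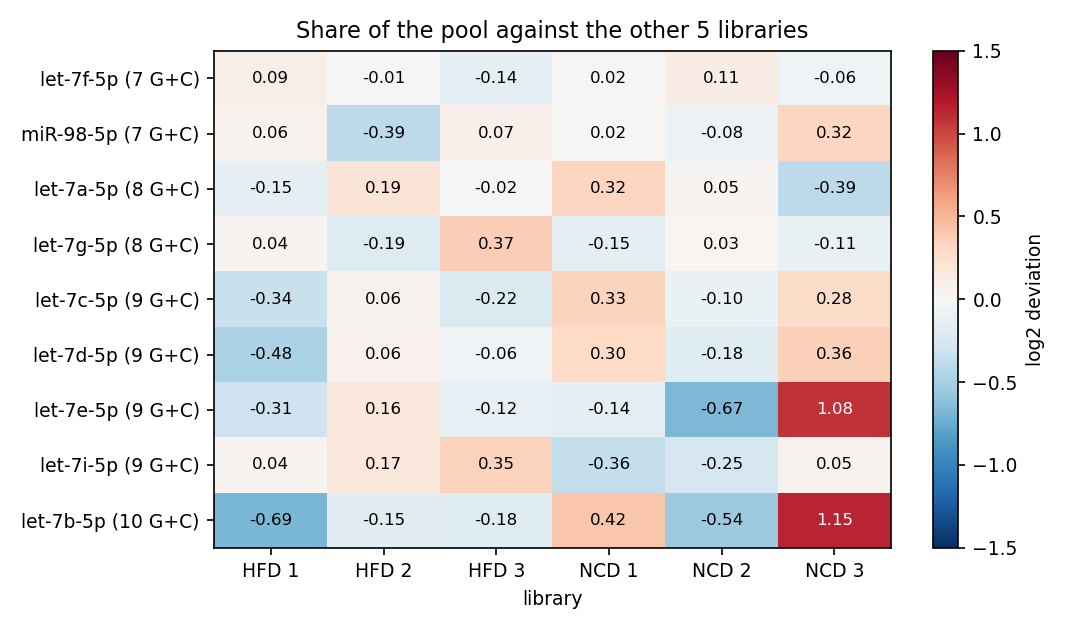
Log2 deviation of each member's share of the pool from its mean over the other 5 libraries, with members ordered by their number of G and C bases and HFD libraries left of NCD libraries. The largest deviations are those of let-7b-5p (1.15) and let-7e-5p (1.08) in NCD 3, and HFD 1 and NCD 2 have negative values for let-7b-5p and let-7e-5p.

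Over the 6 libraries, the Pearson correlation of log2 CPM on the TMM scale ran from -0.537 to 0.973 over all 36 pairs of members. The lower values were those of pairs with let-7b-5p or let-7e-5p, which were set apart after the values were seen. The 21 pairs without let-7b-5p and let-7e-5p ran from 0.647 to 0.973, a range that this choice raised. The pairs with let-7e-5p ran from -0.537 to 0.234, and those of let-7b-5p with the other 7 from -0.466 to 0.241. Without NCD 3, the 21 pairs ran from -0.517 to 0.941, so the positive sign of all 21 rested on that library. Its levels were low on the TMM scale, where its factor of 1.73 lowers each of them. Outside the family, the miRNAs with the pattern most like the pool over the 6 libraries were miR-340-3p (r = 0.997), miR-335-5p (0.994) and miR-541-5p (0.964). Most like let-7f-5p were miR-335-5p (0.993), miR-340-3p (0.983) and miR-30a-3p (0.980). Without NCD 3, the first 3 had 0.986, 0.991 and 0.86 with the pool. These libraries had also been used to pick them as the highest among the tested miRNAs, so this is no independent check. Levels in 1 library share its scaling factor.

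The 3p arms, the passenger strands of the same hairpins, were nearly absent next to the guides for most members. Of the 12 names in the list, 10 were present in the table and 4 passed the filter on low counts. Of these 4, 0 were called by edgeR, where 0.246% of all tested miRNAs were. Among them 1 had a positive and 3 a negative estimate, and the median log2 fold change was -0.45. Reads of both arms over all 6 libraries put the 3p share at 0.00213% for let-7g, 0.00238% for let-7f, 0.00458% for let-7c and 0.0167% for let-7i. It was 0.0902% for let-7a, 0.256% for miR-98, 0.368% for let-7e and 0.515% for let-7b. The reads named let-7a-1-3p may also stem from Mirlet7c-2, since RefSeq gives let-7a-1-3p and let-7c-2-3p the same sequence. miR-98-3p had 0 reads in the 3 HFD libraries and 6, 0 and 10 reads in the NCD libraries. With 3 reads per library as the limit that 0 reads allow, its level in those 4 libraries could reach 0.273 to 0.379 CPM, by counting error alone.

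let-7d was the exception, with 13.1% of its arm reads on the 3p arm over all libraries. The strand is shown because it alone was above 10 CPM among the 3p arms, with bases 2 to 8 in capitals.
let-7d-3p: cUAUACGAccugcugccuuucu
It had 39.4, 33.7 and 35.3 CPM in HFD libraries 1, 2 and 3. The values were 73.9, 46.6 and 65.3 CPM in NCD libraries 1, 2 and 3. Each HFD library thus lay below each NCD library, where 15.3% of all tested miRNAs did not overlap between the diets. The HFD mean was 36.1 ± 2.96 CPM and the NCD mean 61.9 ± 13.9 CPM (SD, n = 3 each). Its log2 fold change was -0.78 ± 0.33 (SE, edgeR adjusted p = 0.576), so it did not pass. The estimate stayed between -1.21 and -0.70 under 17 alternatives, with adjusted p from 0.282 to 0.957.

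The guide from the same hairpin, let-7d-5p, had a log2 fold change of -0.04, so the balance of the arms was set out by library. The 3p arm made up 10.7%, 9.47% and 9.17% of let-7d arm reads in the HFD libraries, against 15.3%, 10.4% and 23.0% in the NCD libraries. The mean was 9.77% ± 0.792 for HFD and 16.2% ± 6.32 for NCD (SD, n = 3 each). HFD 1 lay just above NCD 2, with overlapping 95% Wilson intervals of 9.66% to 11.8% for HFD 1 and 9.55% to 11.4% for NCD 2, and the higher NCD mean came from NCD 1 and NCD 3. As a mean log2 ratio of 5p to 3p reads the difference was 0.77, and leaving out 1 library at a time gave 0.42 to 1.10.

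**Figure D5:**
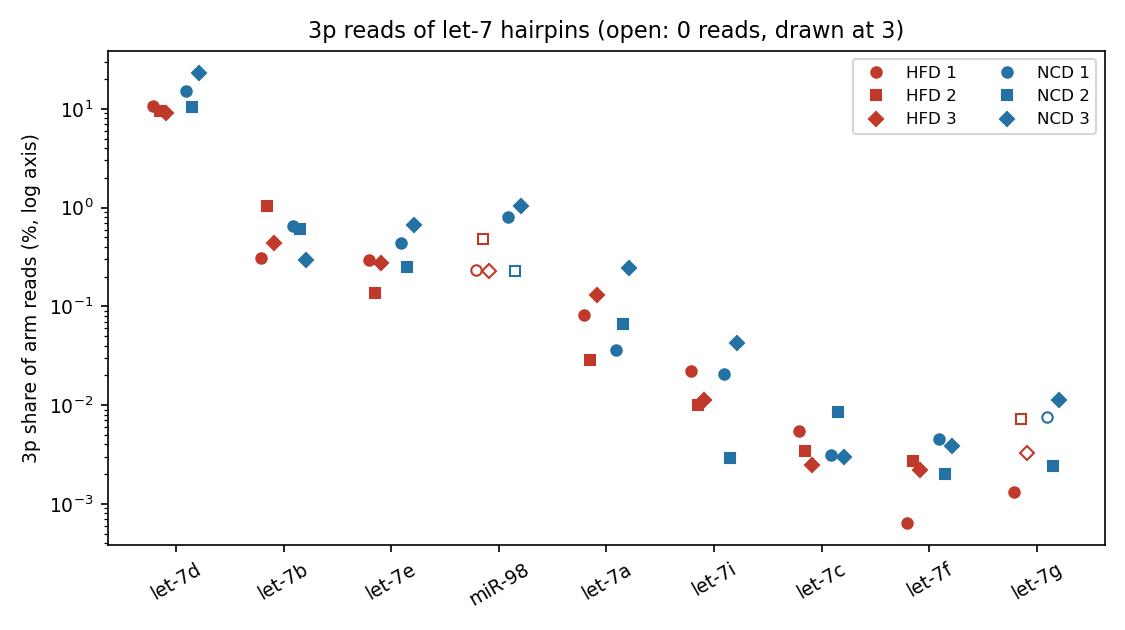
Share of 3p reads among the reads of both arms for each hairpin family (percent, log axis), HFD in red left of NCD in blue, with the mark shape giving the replicate. Open marks are libraries with 0 reads, drawn at 3 reads; let-7d lies near 10% and above, and every other family mostly below 1%.

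Several let-7 hairpins share a primary transcript with miR-99, miR-100 or miR-125 hairpins, and their products were compared with the guides from the same loci. Of the 11 partner names fixed for this purpose 9 were present and tested. Of these, 0 were called by edgeR, where 0.246% of all tested miRNAs were. Among them 3 had a positive and 6 a negative estimate, with a median log2 fold change of -0.23. Beside let-7e-5p, miR-99b-5p averaged 11075 ± 3437 CPM for HFD and 13006 ± 2867 CPM for NCD (SD, n = 3 each), a log2 fold change of -0.23 ± 0.33 (SE). miR-125a-5p, from the same cluster, had 753, 992 and 1187 CPM in the HFD libraries and 2307, 1410.1 and 1982 CPM in the NCD libraries. Its HFD values all lay below its NCD values, where 15.3% of all tested miRNAs did not overlap between the diets. Its log2 fold change was -0.96 ± 0.32 (SE, edgeR adjusted p = 0.392). The estimates for let-7e-5p and miR-125a-5p thus had opposite signs, while neither passed the test. The other arms of this cluster differed in sign, with 0.45 ± 0.35 for miR-99b-3p and -0.31 ± 0.37 for miR-125a-3p (SE). Beside let-7c-5p, miR-99a-5p had -0.02 ± 0.29, and miR-125b-5p, which also has a hairpin beside Mirlet7a-2, had -0.64 ± 0.31. miR-100-5p, the other partner of Mirlet7a-2, had -0.41 ± 0.51 (SE).

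Members with a hairpin in the same transcript had ratios that overlapped between the diets, although let-7a-5p, let-7c-5p and let-7f-5p each also come from a second locus, so these are not ratios within 1 transcript. Reads of let-7b-5p per read of let-7c-5p, which both have a hairpin in Lncppara, were 0.193, 0.210 and 0.241 in the HFD libraries and 0.249, 0.183 and 0.390 in the NCD libraries. Reads of let-7f-5p per read of let-7a-5p were 9.71, 7.55 and 7.93 in the HFD libraries and 7.10, 8.78 and 10.2 in the NCD libraries. Their mean log2 ratio was 3.06 ± 0.193 for HFD and 3.10 ± 0.264 for NCD (SD, n = 3 each).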

How the data were processed

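Small RNA reads from 6 islet libraries were counted per mature miRNA by the authors, and the raw counts were deposited, per the file headers. The authors' deposited TPM values equalled the count over the raw library total on the TPM scale, with no length term (largest relative difference 4.61e-09). Per the labels' protocols, RNA was isolated on RNeasy columns and libraries were made with a NEBNext small RNA kit. The aligner, counter, genome build, annotation release and strand setting were not given in the sources used here.

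Counts were tested with edgeR 4.0.16 (R 4.3.3): filterByExpr with a minimum count of 10, TMM factors, and glmQLFit and glmQLFTest with diet as the only term, adjusted over the 406 miRNAs that passed. The rows removed took 0.0351% of the reads or less per library. Each SE was computed as the absolute log2 fold change over the square root of the edgeR F statistic, since the test reports none. Alternatives were DESeq2 1.42.0, limma-voom and limma-trend (limma 3.58.1) on log2(TPM + 1), other factors and filters, a replicate block, and each library left out. Shares, arm ratios (prior count 0.5) and the pool were described without a test. Only the edgeR step was tried on simulated counts, with 40 miRNAs changed by more than any member's estimate. It was not tried at folds as small as those of the members.

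The 9 members are given by name. The named miRNAs are these, 3p arms and clustered partners of at least 10 CPM, any called miRNA, and the 3 most alike; scarcer 3p rows are given as shares, and miR-98-3p, chosen after its values were seen, also by its reads. The row let-7j, the ratios between paralogs and the setting apart of let-7b-5p and let-7e-5p in the correlations were chosen after the values were seen. The members and lists were chosen with earlier results of these data known. Replicates of 1 diet differed beyond sampling noise, with chi-square values over the members of 379 to 1525 per degree of freedom. Marker lists had 0 calls each, where 0.246% of all tested miRNAs were called. Not every marker passed the filter on low counts: 3 of 4 acinar, 3 of 5 leukocyte, 2 of 4 erythroid and 3 of 4 liver and muscle miRNAs did. Whether cell makeup differed between the diets was not tested. Summed levels were 300 to 434 CPM in HFD and 346 to 748 CPM in NCD libraries for 2 endothelial miRNAs, and 6.18 to 13.3 CPM in HFD and 13.0 to 30.4 CPM in NCD libraries for 5 leukocyte miRNAs. They were 47.8 to 155 CPM in HFD and 39.8 to 143 CPM in NCD libraries for 4 erythroid miRNAs, and 1329 to 4976 CPM in HFD and 1515 to 2978 CPM in NCD libraries for 5 fibroblast and smooth muscle miRNAs. The 4 liver and muscle miRNAs summed to 48.3 to 130 CPM in HFD and 127 to 885 CPM in NCD libraries.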

Additional observations from a re-analysis of the deposited data

How the results depend on the processing

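The count of let-7 members past the threshold was 0 under each of 17 alternatives, and let-7b-5p, let-7g-5p and let-7i-5p kept their sign in all. Scaling by library totals alone put the log2 fold change at -0.075 for let-7a-5p, -0.30 for let-7e-5p, -0.086 for let-7f-5p and -0.15 for miR-98-5p. With limma-trend on log2(TPM + 1) it was -0.046, -0.21, -0.091 and -0.20 for the same members. With a mean of at least 100 counts, it was -0.012 for let-7a-5p, -0.049 for let-7e-5p and -0.020 for miR-98-5p. let-7d-5p was at 0.021 with limma-voom and at 0.014 with the replicate block, which changed no call. When 1 library was left out, the range was -0.26 to 0.40 for let-7a-5p, -0.34 to 0.084 for let-7c-5p, -0.29 to 0.082 for let-7d-5p, -0.17 to 0.50 for let-7f-5p and -0.12 to 0.35 for miR-98-5p. What caused these changes of sign was not tested.

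Over all miRNAs, 1 was called at first, 6 without a filter, 3 with DESeq2, 0 with library totals only, 0 with limma-trend on log2(TPM + 1), and 0 to 4 when 1 library was left out (0 without NCD 1, 4 without NCD 2 and 3 without NCD 3). Counting paralogs 1 base apart together gave a share difference of -3.97 percentage points for let-7a-5p, let-7b-5p, let-7c-5p, let-7e-5p and let-7f-5p, which was -1.997 without HFD 3 and -5.09 to -3.14 without any other 1 library. The GC correction was added after the data were seen. Deviations of same-numbered libraries correlated at 0.17, -0.24 and 0.35 for numbers 1, 2 and 3, so replicate numbers were not treated as pairing the libraries. The lowest guide count was 625 reads, that of miR-98-5p in HFD 2, while the 3p arms other than let-7d-3p rested on few reads. The effect of depth on the guides was not tested.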
